A study of Mus musculus with 6 samples.

Results

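Canonical Wnt signalling was followed in mouse liver through 10 genes: the direct or feedback targets Axin2, Lgr5, Tbx3, Rnf43, Znrf3, Sp5 and Nkd1, and the hepatocyte genes Oat, Rhbg and Lect2. The members were taken as a list of known Wnt/beta-catenin targets of liver, and the rule that names them uses no measured value, although the list was drawn up with earlier results of these data known. All 10 were found among the 20914 genes of the count table, and all 10 passed the filter on low counts. The series holds 6 libraries of liver RNA in 2 groups of 3, PBS and DOX. Each has the genotype label BucheKI/KI-Hep, a knock-in meant to raise butyrylcholinesterase in hepatocytes, with Alb-Cre in the sample names, so that the recombinase is under the albumin promoter. Each also has the label of BDL treatment, usually bile duct ligation. Both groups thus share the genotype and injury labels, and PBS or DOX is the only group difference that the labels give. The labels do not explain S10D or DOX, and age is not given in the sources used here. They do not state that libraries came from separate animals, so the spread between replicates may be technical in part.

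When a Wnt ligand binds its Frizzled and LRP receptors, beta-catenin escapes destruction, enters the nucleus and activates genes together with TCF/LEF factors. R-spondins strengthen the signal by binding LGR receptors and removing the ubiquitin ligases RNF43 and ZNRF3, which otherwise clear Frizzled from the cell surface. In liver, endothelial cells of the central vein release Wnt2, Wnt9b and Rspo3, and hepatocytes around that vein keep a pericentral programme that includes glutamine synthetase and ammonium handling. Axin2, Lgr5, Rnf43, Znrf3, Nkd1 and Sp5 are widely used as readouts of the pathway.

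Libraries held between 32826493 and 41102844 counts in genes. Of 9 hepatocyte markers in the table, all 9 were tested and none was at 0 in any library. Their summed level was 86559 to 96169 CPM (counts relative to the TMM-scaled library size) in PBS and 100053 to 153905 in DOX, with 150188 and 153905 in DOX replicates 1 and 3. A sum is weighted towards the most abundant genes. Gene by gene, 6 of the 9 were positive and 3 negative in DOX against PBS, with a median log2 fold change of 0.10. By edgeR 0 of them were called, against 0.0291% of all genes tested, and by DESeq2 1, against 1.19%. PBS replicate 2 stood apart in endothelial genes. Its summed level of 15 liver endothelial markers was 106.9 CPM, against 237.8 and 242.5 in the other PBS libraries and 196.5 to 358.5 in DOX. The same library was the highest for 14 cholangiocyte markers (479.9 CPM, others 199.8 to 380.0). For 13 stellate and fibroblast markers DOX replicate 3 was the lowest (228.8 CPM) and PBS replicate 2 came next (236.2, others 348.4 to 498.0). Of these 13, 12 were positive in DOX against PBS and 0 were called. Their median log2 fold change was 0.32, and 0.05 without PBS replicate 2. For macrophage markers DOX replicate 3 was also the lowest (903.6 CPM), followed by PBS replicate 2 (940.4). In bulk RNA, fewer cells of a type and less RNA per cell cannot be told apart.

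Promoter sequences from RefSeq (GRCm38.p6) were at hand for 6 of the 10 members (Axin2, Lect2, Nkd1, Oat, Rnf43, Sp5) and were searched because these genes are described as targets of TCF/LEF factors. The letters CTTTGAA and CTTTGAT, forms of the core that these factors bind, were searched on both strands in the 250 bases before each annotated start. They occurred in 2 of the 6 members, Sp5 and Lect2, and in 8.63% of 27025 genes with a window of that length. The windows are given on the gene's strand, 5′ to 3′, with the match in capitals. In Sp5 the match lay 104 to 98 bases before the start, in chr2:70474784-70474860 on the plus strand, and in Lect2 it lay 32 to 26 bases before the start, in chr13:56548539-56548605 on the minus strand, where the letters appear as the reverse complement.
Sp5: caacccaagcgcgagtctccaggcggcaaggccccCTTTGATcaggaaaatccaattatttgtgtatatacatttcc
Lect2: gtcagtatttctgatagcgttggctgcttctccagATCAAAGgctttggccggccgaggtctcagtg
A match of letters is a description of the sequence and not a measured site. Both genes had a positive log2 fold change that did not pass the test, as given with their values below.

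DOX was compared with PBS, the only contrast of the series. None of the 10 members passed the test across all genes. Lgr5, Axin2, Tbx3 and Oat had the more negative log2 fold changes (-0.99 to -0.31), and Nkd1, Sp5, Lect2 and Rhbg had positive ones (0.26 to 0.46). By edgeR's quasi-likelihood test 0 of 10 were called at an adjusted p of 0.05, where 0.0291% of the 13725 genes tested were called (4 genes). By DESeq2 it was 0 of 10, against 1.19% of 14828 genes. At an unadjusted p of 0.05, 1 of 10 passed (Lgr5), against 9.90% of all genes. The PBS and DOX values overlapped in all 10 members, whereas 16.9% of all genes had groups that did not overlap. The median log2 fold change was -0.11 over the members and -0.02 over all genes, and 6 of 10 members were negative, against 53.0% of all genes. With 1 library left out, the member median ranged from -0.23 without PBS replicate 2 to 0.04 without PBS replicate 1, so its sign was not stable.

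**Figure D1:**
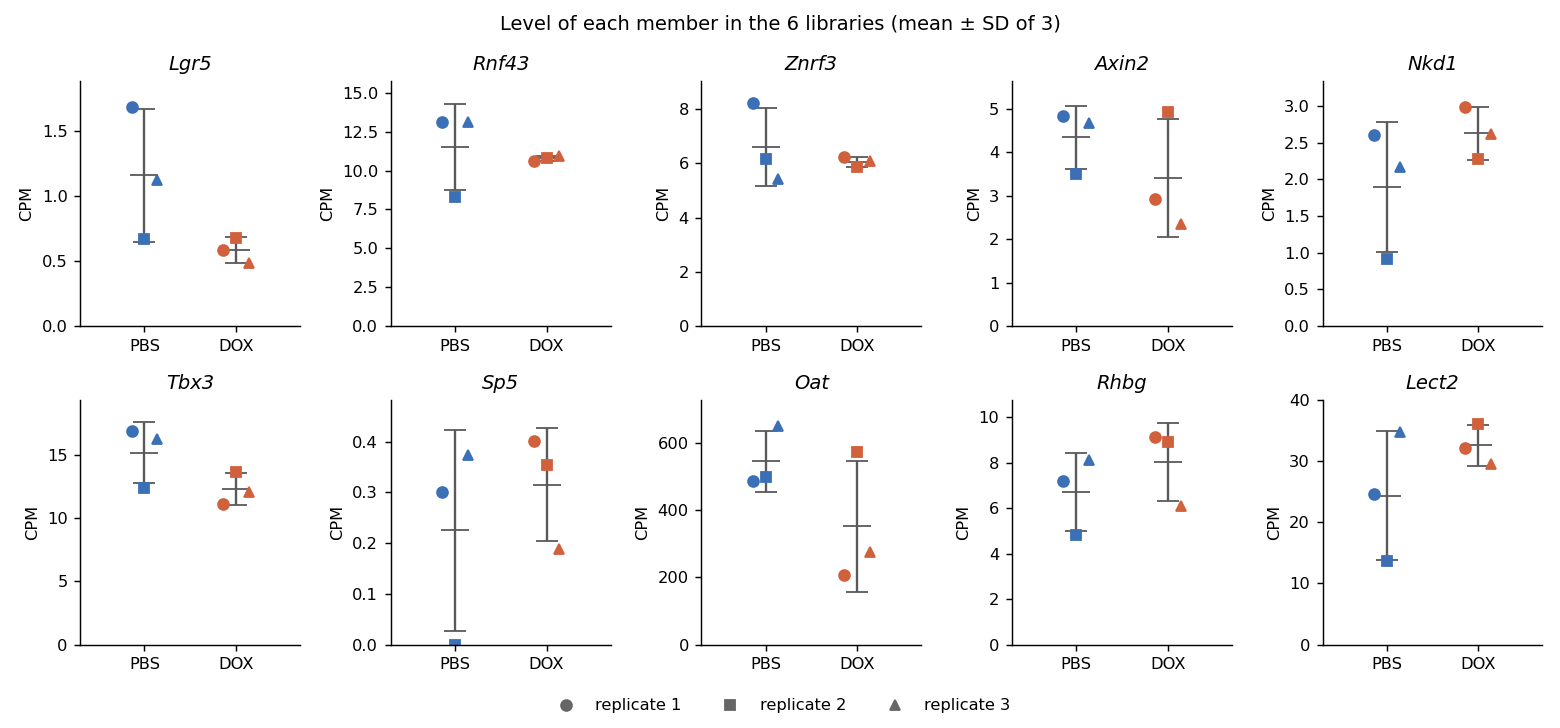
CPM (TMM-scaled) of each member on the vertical axis in the 3 PBS (blue) and 3 DOX (orange) libraries. Horizontal marks and bars give the mean and SD of 3, and symbols give the replicate number. PBS replicate 2 is the lowest library for Rnf43, Nkd1, Sp5, Rhbg and Lect2, and DOX replicates 1 and 3 are the 2 lowest for Lgr5, Axin2, Tbx3 and Oat.

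Lgr5, an R-spondin receptor that marks stem cells of several epithelia and pericentral hepatocytes (chromosome 10, 115450311 to 115587780, minus strand in GRCm38), had 73, 22 and 42 counts in PBS replicates 1 to 3 and 22, 23 and 18 in DOX. These were 1.68, 0.666 and 1.12 CPM in PBS and 0.587, 0.679 and 0.486 CPM in DOX. The DOX libraries lay close together and PBS replicate 2 lay among them, while the other PBS libraries were higher. The fitted ratio was 0.502, with a 95% interval of 0.259 to 0.973 (log2 fold change -0.99, SE 0.42, edgeR adjusted p = 0.496). The exact two-sided permutation p was 0.2, where 0.1 is the smallest that 3 against 3 libraries allow.

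Rnf43 and Znrf3, the membrane ubiquitin ligases that R-spondins and LGR receptors hold in check, lie on chromosome 11 (87662722 to 87735539, plus strand, and 5276324 to 5444847, minus strand). Rnf43 stood at 13.1, 8.32 and 13.1 CPM in PBS and at 10.6, 10.8 and 10.96 in DOX. The DOX values fell between the low PBS replicate 2 and the other PBS libraries. Its log2 fold change was -0.10 (SE 0.18, edgeR adjusted p = 0.885), with a 95% interval of the ratio from 0.703 to 1.24. Znrf3 stood at 8.22, 6.17 and 5.43 CPM in PBS and at 6.25, 5.88 and 6.07 in DOX. Here PBS replicate 1 was the highest library and PBS replicate 3 the lowest, with DOX in between (log2 fold change -0.12, SE 0.18, ratio interval 0.686 to 1.23). For both ligases the SD was smaller in DOX (0.169 and 0.184 CPM) than in PBS (2.77 and 1.44 CPM, n = 3 each). That difference in spread was not tested.

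Axin2, a scaffold of the beta-catenin destruction complex and a negative feedback gene (chromosome 11, 108920349 to 108950783, plus strand), had 87 to 210 counts per library. It stood at 4.85, 3.51 and 4.68 CPM in PBS and at 2.94, 4.93 and 2.35 CPM in DOX. DOX replicate 2 was the highest of the 6 libraries, and DOX replicates 1 and 3 were the lowest. The log2 fold change was -0.36 (SE 0.30, edgeR adjusted p = 0.718), and the interval of the ratio was 0.489 to 1.25.

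Nkd1, a feedback inhibitor that binds Dishevelled (chromosome 8, 88521354 to 88594884, plus strand), had the opposite sign. It stood at 2.61, 0.908 and 2.17 CPM in PBS and at 2.99, 2.27 and 2.62 CPM in DOX. PBS replicate 2, with 30 counts, lay well below the other 5 libraries, which held 77 to 113. The log2 fold change of 0.46 (SE 0.37, edgeR adjusted p = 0.706) was 0.14 without that library. The 2 intracellular feedback inhibitors therefore differed in sign, each within its own spread, and the difference between them was not tested.

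Tbx3, a T-box repressor described as a beta-catenin target in liver (chromosome 5, 119670669 to 119684724, plus strand), stood at 16.9, 12.4 and 16.2 CPM in PBS and at 11.1, 13.6 and 12.0 CPM in DOX. PBS replicate 2 lay within the DOX range and the other PBS libraries above it. The log2 fold change was -0.31 (SE 0.15, edgeR adjusted p = 0.523), with a ratio interval of 0.639 to 1.02. Sp5, a zinc finger factor that acts downstream of beta-catenin (chromosome 2, 70474923 to 70477729, plus strand), was close to the detection limit. It had 13, 0 and 14 counts in PBS and 15, 12 and 7 in DOX. A count of 0 in PBS replicate 2 allows up to 0.0914 CPM, here relative to the library total without the TMM factor. The log2 fold change of Sp5 was 0.44 (SE 0.83) with a ratio interval of 0.362 to 5.09, so no difference was detectable at this depth.

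Oat, ornithine aminotransferase of mitochondria (chromosome 7, 132557478 to 132576398, minus strand), stood at 487.1, 500.02 and 650.9 CPM in PBS and at 206.6, 573.2 and 276.1 CPM in DOX. DOX replicate 2 lay inside the PBS range, and the other DOX libraries lay below every PBS library. The log2 fold change was -0.63 (SE 0.34, edgeR adjusted p = 0.569, exact two-sided permutation p = 0.3), with a ratio interval of 0.375 to 1.11. With 7740 to 24333 counts per library, counting error is small beside the spread between libraries. Without DOX replicate 2 the log2 fold change was -1.17, and without DOX replicate 1 it was -0.36.

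Rhbg, an ammonium transporter of the hepatocyte membrane (chromosome 3, 88242874 to 88254709, minus strand), stood at 7.18, 4.81 and 8.13 CPM in PBS and at 9.13, 8.89 and 6.07 CPM in DOX. The lowest values of each group were PBS replicate 2 and DOX replicate 3, and the log2 fold change was 0.26 (SE 0.24, edgeR adjusted p = 0.742). Lect2, a secreted hepatocyte protein induced by beta-catenin (chromosome 13, 56542464 to 56548502, minus strand), stood at 24.5, 13.7 and 34.7 CPM in PBS and at 32.2, 36.0 and 29.4 CPM in DOX. All 3 DOX libraries lay within or just above the upper part of the PBS range (log2 fold change 0.42, SE 0.28, edgeR adjusted p = 0.643). Without PBS replicate 2 the log2 fold changes of Rhbg and Lect2 were 0.07 and 0.14. The 3 hepatocyte members thus did not share a sign.

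**Figure D2:**
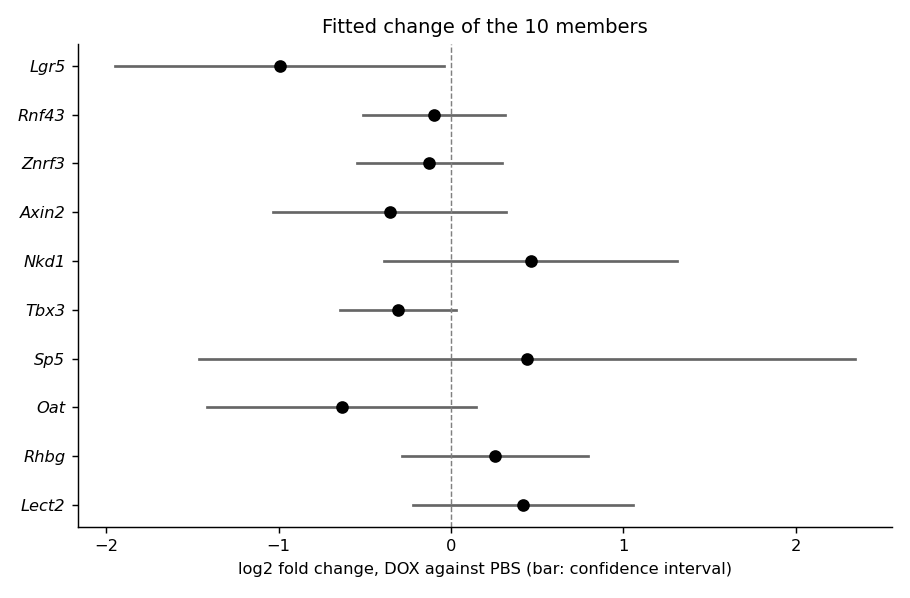
Fitted log2 fold change of DOX against PBS (horizontal axis) for each member, as a point with its 95% interval from the edgeR fit. The interval of Lgr5 (-1.95 to -0.04) is the only one of the 10 that does not include 0, before any adjustment over genes.

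Some reads are hard to place, because members overlap other genes on the same or the opposite strand. No source used here states whether counting used strand, and strand would separate only the second kind. Oat lies inside an extended gene model of Fgfr2 on the same strand, which held 531 to 948 counts per library. Rhbg shares most of its span with Gm38392 on the same strand, and Lgr5 overlaps A930009A15Rik on the opposite strand. Neither Gm38392 nor A930009A15Rik was found by name among the genes of the count table. Tbx3os1, antisense to Tbx3, held 0 to 5 counts, and 1110028F11Rik, inside an intron of Rnf43, held 3 to 15. The antisense gene Gm11670 at Axin2 and Gm45496, on the same strand as Nkd1, were not found there by name either.

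Levels between genes were compared per length, on the authors' FPKM scale. Oat was the most abundant member at 265.8 ± 49.3 FPKM with PBS and 158.2 ± 95.0 with DOX (mean ± SD of 3 libraries). Lect2 followed at 11.9 ± 5.38 and 14.4 ± 2.21 FPKM, with ranges apart from both neighbours in either group. Rhbg (3.59 ± 1.01 and 3.93 ± 0.991), Tbx3 (3.08 ± 0.586 and 2.27 ± 0.326) and Rnf43 (2.67 ± 0.717 and 2.27 ± 0.106) came next, and their ranges overlapped in PBS. In DOX, Rhbg lay above the other two. Znrf3 (0.905 ± 0.21 and 0.756 ± 0.0365 FPKM) and Axin2 (0.857 ± 0.169 and 0.618 ± 0.277) overlapped each other, and Nkd1 stood at 0.448 ± 0.218 and 0.56 ± 0.0715. The lowest were Lgr5 (0.26 ± 0.12 and 0.119 ± 0.0259) and Sp5 (0.114 ± 0.101 and 0.145 ± 0.0555), whose order was exchanged between PBS and DOX while their ranges overlapped in each. The upper 8 places were held by the same genes in the same order in both groups.

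The members did not rank the libraries alike. PBS replicate 2 was the lowest of the 6 for Rnf43, Nkd1, Sp5, Rhbg and Lect2, 5 of the 10 members. The 2 lowest libraries were DOX replicates 1 and 3 for Lgr5, Axin2, Tbx3 and Oat. Without PBS replicate 2, the DOX values of Lgr5, Rnf43 and Tbx3 lay below both remaining PBS values, 3 of 10 members, where 15.3% of all genes did so. Without DOX replicate 2 this held for Axin2, Lgr5, Oat and Tbx3, 4 of 10, against 15.2% of all genes. It held for 0 of 10 when any of the other 4 libraries was left out. In the higher direction, Nkd1 did not overlap without PBS replicate 1 and without DOX replicate 2, Lect2 without PBS replicate 3 and Rhbg without DOX replicate 3, each 1 of 10, where 11.3% to 13.1% of all genes did so. In all 6 cases edgeR called 0 members. These counts were made after the values had been seen.

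**Figure D3:**
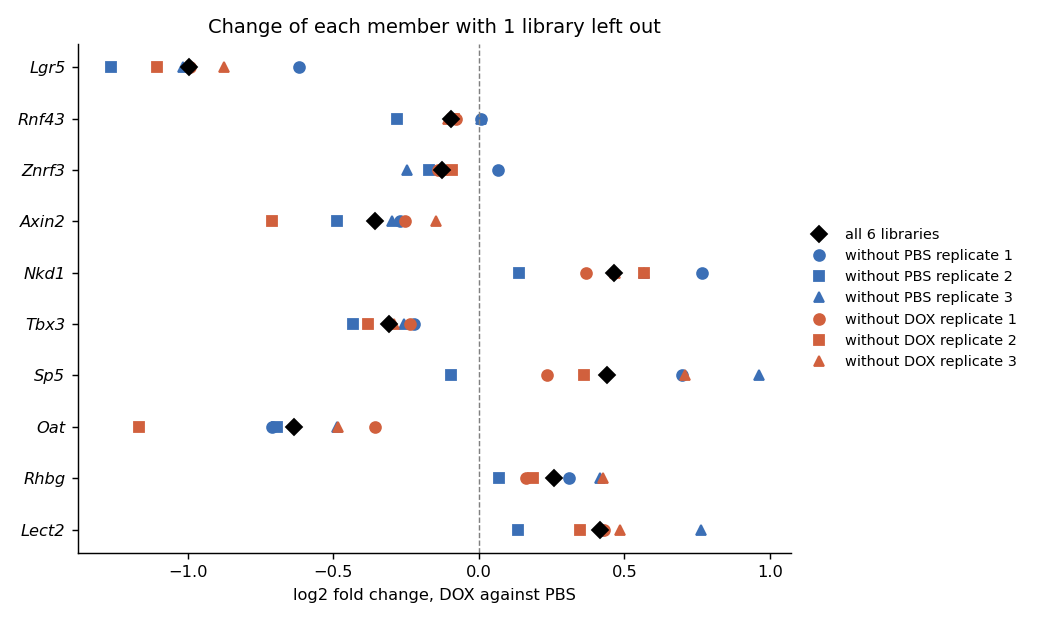
Log2 fold change of DOX against PBS (horizontal axis) for each member with all 6 libraries (black diamond) and with each library left out in turn (blue for PBS, orange for DOX, symbol for the replicate number). Lgr5, Axin2, Tbx3 and Oat stay below 0 throughout and Nkd1, Rhbg and Lect2 above it, while Rnf43, Znrf3 and Sp5 cross 0.

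The signals upstream were examined next. Wnt2, the endothelial ligand of the central vein, stood at 0.485, 0.272 and 1.10 CPM in PBS and at 1.20, 0.561 and 3.24 CPM in DOX (log2 fold change 1.43, SE 0.70, edgeR adjusted p = 0.541). Wnt9b, the second such ligand, stood at 0.392, 0.817 and 0.669 CPM in PBS and at 1.09, 0.532 and 2.02 in DOX (log2 fold change 0.97, SE 0.53). Rspo3, the R-spondin made there, stood at 1.62, 0.787 and 2.35 CPM in PBS and at 3.15, 1.57 and 3.24 in DOX (log2 fold change 0.74, SE 0.43). For all 3 genes DOX replicates 1 and 3 were the 2 highest libraries. Among the members, these libraries were the 2 lowest for Lgr5, Axin2, Tbx3 and Oat, but the 2 highest for Nkd1. DOX replicate 1 was also the highest for Sp5 and Rhbg. A relation between the signals and the members was not tested. For Wnt2, Wnt9b and Rspo3 DOX replicate 2 lay inside the PBS range, and none of the 3 passed (edgeR adjusted p = 0.541 to 0.600). Without DOX replicate 3 the log2 fold change was 0.51 for Wnt2, 0.40 for Wnt9b and 0.57 for Rspo3, and that of Rspo3 was 0.42 without PBS replicate 2 and 1.13 without PBS replicate 3. The summed level of the 8 central vein endothelial markers, which include these 3, was 22.3 to 31.5 CPM in PBS and 51.7, 25.3 and 58.2 in DOX. All 8 were tested and positive, and none was at 0 in any library. By edgeR 0 of the 8 were called, and 3 had an unadjusted p under 0.05, against 9.90% of all genes. DESeq2 called 1, Cdh13 (adjusted p = 0.048), against 1.19% of genes. The median log2 fold change of the 8 was 0.88, and 0.57 without DOX replicate 3. Liver endothelial markers in general had the same sign, with 14 of 15 positive and a median of 0.76, which was 0.35 without PBS replicate 2. Of these, 0 were called by edgeR or DESeq2, and 2 had an unadjusted p under 0.05, against 9.90% of all genes. The part of endothelial RNA in these values was not tested.

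**Figure D4:**
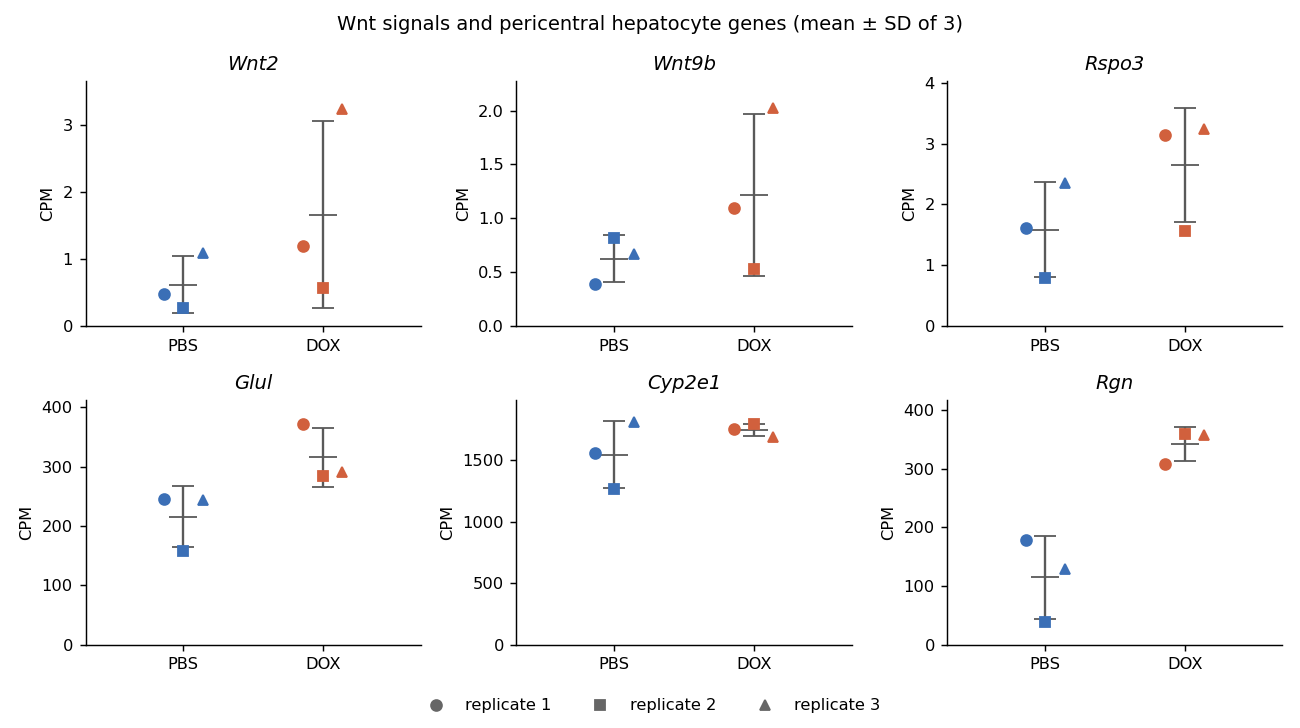
CPM (TMM-scaled, vertical axis) of the endothelial signals Wnt2, Wnt9b and Rspo3 and of the pericentral hepatocyte genes Glul, Cyp2e1 and Rgn in 3 PBS (blue) and 3 DOX (orange) libraries, with mean and SD of 3. For Wnt2, Wnt9b and Rspo3 DOX replicates 1 and 3 are the highest libraries, and for Glul and Rgn every DOX library lies above every PBS library.

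Of 14 Wnt ligand genes in the table, 10 were tested, 3 positive and 7 negative, with a median log2 fold change of -0.21 (with 1 library left out, from -0.35 without PBS replicate 3 to -0.05 without PBS replicate 2). By edgeR 0 were called, by DESeq2 0, and 1 had an unadjusted p under 0.05, against 9.90% of all genes. Wnt10a went from 1.73 ± 0.312 to 0.729 ± 0.33 CPM without overlap of the groups (log2 fold change -1.25, SE 0.40, edgeR adjusted p = 0.407), and Wnt7a had a log2 fold change of -1.08 (SE 0.48). In all, 2 of the 10 were lower without overlap, where 9.02% of all genes were. The summed level of 14 cholangiocyte markers was 344.8 to 479.9 CPM in PBS and 199.8 to 341.0 in DOX, and 13 of the 14 were negative. Their median was -0.66, and -0.39 without PBS replicate 2 or -0.41 without DOX replicate 3. Their part in the ligand values was not tested.

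The receptors and the transduction chain gave 0 calls by edgeR and by DESeq2 as well. Among 13 tested receptors, 10 were negative (median -0.06) and 1 had an unadjusted p under 0.05, against 9.90% of all genes. With 1 library left out, the receptor median ranged from -0.28 without DOX replicate 1 to 0.01 without PBS replicate 2, where 7 were positive. Lrp5, a Wnt co-receptor, averaged 69.6 ± 5.96 CPM with PBS and 83.2 ± 6.93 with DOX (log2 fold change 0.26, SE 0.10, edgeR adjusted p = 0.486), and Fzd4 had a log2 fold change of -0.30 (SE 0.13). Lgr4, the R-spondin receptor related to Lgr5, averaged 37.9 ± 4.89 CPM with PBS and 40.9 ± 3.63 with DOX. Per length, it averaged 7.75 ± 1.15 FPKM with PBS and 7.61 ± 0.813 with DOX, above Lgr5 in every library. Of 21 tested transduction genes, 15 were negative (median -0.06). Of these 21, 2 had an unadjusted p under 0.05, against 9.90% of all genes, and 4 were lower without overlap, against 9.02%. Bcl9l, a co-activator that binds beta-catenin, averaged 42.5 ± 2.35 CPM with PBS and 33.2 ± 0.692 with DOX (log2 fold change -0.36, SE 0.08, edgeR adjusted p = 0.259), and its partner Pygo2 had a log2 fold change of -0.30 (SE 0.10). Ctnnb1, the beta-catenin gene, stood at 241.8 ± 1.57 and 226.8 ± 18.9 CPM, and Tcf7l2, a nuclear partner of it, at 8.26 ± 0.41 and 7.27 ± 0.642. Among 5 tested secreted antagonists, Notum, a Wnt deacylase and itself a target, stood at 14.7 ± 2.45 and 15.8 ± 1.21 CPM. The signs of the small values for Lgr4 and Notum turned when libraries were scaled by size only.

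Other Wnt targets were mixed, with 5 of 13 positive and a median of -0.03. By edgeR or DESeq2 0 were called, and 2 had an unadjusted p under 0.05, against 9.90% of all genes. With 1 library left out, the median ranged from -0.11 without DOX replicate 1 to 0.09 without DOX replicate 3. Fgf21, a hepatokine, went from 0.909 ± 0.417 to 2.29 ± 0.87 CPM (log2 fold change 1.34, SE 0.45, edgeR adjusted p = 0.423), and Ephb3 had a log2 fold change of -1.23 (SE 0.54).

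Pericentral hepatocyte genes outside the 10 members had more positive than negative values. Of 26 tested, 19 were positive, where 53.0% of all genes were negative, and the median log2 fold change was 0.35. By edgeR 0 were called, against 0.0291% of all genes. At an unadjusted p of 0.05, 11 passed, against 9.90%, and DESeq2 called 3, against 1.19%. Glul, the glutamine synthetase of the last hepatocytes before the central vein, stood at 245.8, 157.2 and 244.2 CPM in PBS and at 371.7, 283.7 and 290.5 in DOX (log2 fold change 0.55, SE 0.19, edgeR adjusted p = 0.435). Every DOX library lay above every PBS library. Rgn, regucalcin, did so too, at 178.0, 37.9 and 128.6 CPM in PBS against 308.6, 359.5 and 356.6 in DOX (log2 fold change 1.57, SE 0.45, edgeR adjusted p = 0.375). In all, 8 of the 26 were higher without overlap, against 7.84% of all genes. Cyp2e1, a cytochrome P450 of the pericentral zone, stood at 1546 ± 274.0 and 1747 ± 52.3 CPM, and Cyp1a2 at 165.9 ± 118 and 275.7 ± 74.9, both with overlap. The genes called by DESeq2 were Cyp2c54 (adjusted p = 0.00099), Cyp2c29 (adjusted p = 0.0015) and Slco1b2 (adjusted p = 0.0051), of which the first 2 belong to a family of similar sequence whose reads the counting could split. With 1 library left out, the median ranged from 0.26 without DOX replicate 3, with 18 of the 26 positive, to 0.51 without DOX replicate 1. Without PBS replicate 2, 17 of the 26 were positive and the median was 0.35.

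Of 26 periportal hepatocyte genes, 16 were negative, with a median log2 fold change of -0.08 whose sign was not stable. Leaving out PBS replicate 2 moved this median to 0.06, and omitting DOX replicate 1 moved it to 0.04. In each of these fits 14 of the 26 were positive. The median stayed negative when any other library was dropped, with the lowest value (-0.15) for PBS replicate 3. With all libraries 0 were called by edgeR, 3 had an unadjusted p under 0.05 and 1 was called by DESeq2. That gene was Cdh1, E-cadherin, which averaged 93.9 ± 17.8 CPM with PBS and 57.8 ± 10.8 with DOX (log2 fold change -0.70, SE 0.17, edgeR adjusted p = 0.308, DESeq2 adjusted p = 0.032). Duct cells also express Cdh1, the cholangiocyte sums are given above, and their part in this value was not tested. The serine dehydratase-like gene Sdsl had a log2 fold change of -0.48 (SE 0.16). Cps1, the entry enzyme of the urea cycle, stood at 5729 ± 695.4 and 4955 ± 779.9 CPM, and Cyp2f2 at 251.1 ± 48.6 and 388.0 ± 279.9, both with overlap.

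**Figure D5:**
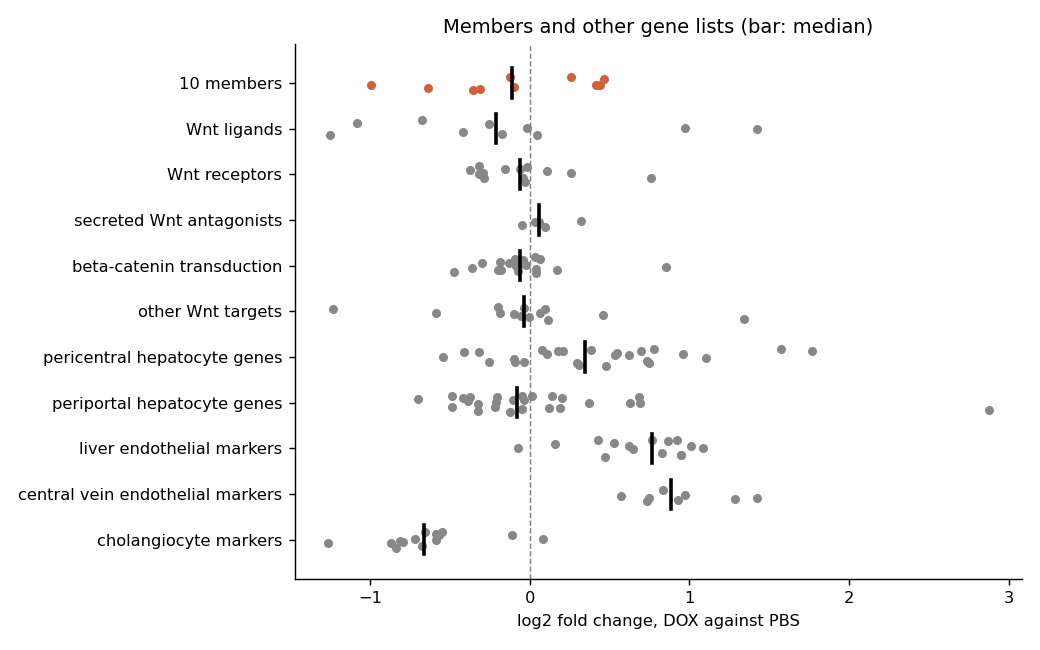
Log2 fold change of DOX against PBS (horizontal axis) of each tested gene in the 10 members (orange) and in other lists (grey), with the median of each as a black bar. The members spread on both sides of 0 with a median of -0.11. Other medians are 0.35 for pericentral hepatocyte genes, 0.88 for central vein endothelial markers and -0.66 for cholangiocyte markers. Each of these other medians is nearer to 0 without DOX replicate 3.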

How the data were processed

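The authors deposited read counts and FPKM per gene for 6 libraries, made from total liver RNA with a SMARTER mRNA-Seq kit per the labels' protocols. The submitters' processing notes name GRCm38 and mm10, and no source used here gives the aligner, the counter or whether strand was used. The deposited FPKM equal counts divided by 1 length per gene and the library total, for 18913 of 18913 genes with counts in at least 2 libraries. Groups came from the labels. A chi-square between replicates, divided by its degrees of freedom, was 44.8 to 141.9, well above sampling noise.

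Counts were tested with edgeR 4.0.16 (R 4.3.3; filterByExpr, TMM, quasi-likelihood F test, no block) over 13725 genes, with Benjamini-Hochberg adjustment over all of them at 0.05. CPM are TMM-scaled except for the floor, taken as 3 counts. That floor was 0.073 to 0.0914 CPM relative to the library total without the TMM factor (counting error only). Alternatives were RLE and library-size scaling, DESeq2 1.42.0, limma-voom (limma 3.58.1), other filters, a replicate block, each library left out, and limma on log2 FPKM with pseudocounts of 1 and 0.1. The procedure was tested on simulated data. The members and lists were chosen with earlier results of these data known. Named genes are the 10 members, a fixed set of pathway genes and up to 4 genes of smallest p from each list discussed. Coordinates are from GENCODE M21 (GRCm38).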

Additional observations from a re-analysis of the deposited data

How the results depend on the processing

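In all 16 alternatives edgeR, DESeq2 or limma called 0 of the 10 members. Of 160 member values, 156 kept their direction and stayed short of the threshold. The 4 that turned were Rnf43 without PBS replicate 1 or 3 (log2 fold change 0.0067 and 0.0069, range when 1 library was left out -0.28 to 0.0069), Znrf3 without PBS replicate 1 (0.0651, lowest -0.25) and Sp5 without PBS replicate 2 (-0.0966, highest 0.96). Of 430 values of 27 other named genes, 10 turned. Lgr4 was -0.0273 when scaled by library size only and -0.0198, -0.0217 and -0.0198 on the FPKM table (pseudocount 1, pseudocount 0.1, and no filter). Notum was -0.0364, -0.0211, -0.0235 and -0.0211 in the same settings and -0.0171 without PBS replicate 2 (highest 0.221 when 1 library was left out), and Cyp2f2 was -0.146 without DOX replicate 3 (highest 0.926). Library-size scaling moved the median of all genes to -0.15. The count of all genes called was 176 with DESeq2, 2 with limma-voom and 61 without a filter, against 4, and in the other Wnt and zonation lists it was 4 with DESeq2 and 2 without a filter, against 0. The cause was not tested. With the replicate number as a block 21 genes were called, 0 of them members. Deviations of same-numbered libraries correlated at 0.192, 0.130 and 0.0097, and those of differently numbered libraries at -0.183 to 0.0565. The labels give the replicate numbers no meaning, so no block was used in the main test. Whether the numbers mark a pairing cannot be told from these values. Counts of 0 to 15 for Sp5 and 18 to 73 for Lgr5 limit both.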
